A study of Mus musculus with 12 samples.

Results

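Zone II of the embryonic mouse growth plate was compared with the average of the zones on either side of it, to find the genes whose signal was highest or lowest in the middle of the plate. Tibiae of CD1 mice at embryonic day 15.5 had been cut by hand into zone I (resting and proliferating chondrocytes), zone II (mostly prehypertrophic and hypertrophic chondrocytes) and zone III (the most mature hypertrophic cells and the mineralized part). All animals were untreated, and the segments of a litter were pooled, so each value averages several embryos. Each zone had 4 arrays (A to D), from 4 litters, and all 12 arrays of the series entered the comparison. The value followed here is the mean log2 signal of the 4 zone II arrays minus the average of the zone I mean and the zone III mean. It was tested for 22255 of 45101 probe sets, those with a mean signal of 50 or more in at least 1 zone, and 1 probe set per gene then stood for 11847 of the 18193 genes that the array names singly. A gene or probe set was called higher or lower at an adjusted p under 0.05 (limma, Benjamini-Hochberg over all probe sets tested) and a difference of at least 1.5-fold. A called gene was a peak when zone II lay at least 1.5-fold above each outer zone, and a dip when it lay at least 1.5-fold below each. Both steps use the same zone II arrays, so the position against one outer zone is no independent check of the position against the other.

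In a growth plate, chondrocytes divide in columns, leave the cell cycle as prehypertrophic cells, and then enlarge into hypertrophic cells that make type X collagen before their matrix mineralizes. Prehypertrophic cells secrete Indian hedgehog (Ihh), which acts on neighbouring chondrocytes and on the perichondrium. It maintains PTHrP near the joint, and PTHrP acts through the receptor Pth1r to hold back hypertrophy. Chondrocytes make a matrix of collagens and sulphated proteoglycans and have no blood supply of their own, whereas vessels, osteoclasts and osteoblasts occupy the mineralized end and a sheath of fibrous perichondrium surrounds the whole element.

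Replicate A of zone II stood apart from the other zone II arrays in the signal of blood and fibrous genes. Its Hbb-y signal, an embryonic globin, was 3013, against 295, 418 and 368 on the others, and its Postn signal, a periosteal matrix protein, was 815 against 372, 329.9 and 296. Without this array the genes that dip numbered 1571 in place of 1488. The scaling of the arrays also matters: the median difference over all genes was -0.10 as deposited, -0.003 after quantile normalization, 0.11 after centring each array on its median and -0.42 after centring on ribosomal protein genes. Of the probe sets called, 32.2% were higher in zone II as deposited, 44.0% after quantile normalization, 57.2% after median centring and 10.4% after ribosomal centring. The ratio of 3′ to 5′ Gapdh probe sets, a sign of RNA integrity, was 1.25 to 1.51 in zone II, 1.27 to 1.76 in zone I and 1.98 to 2.28 in zone III. The same ratio for beta-actin ran in the other order, at 2.63 to 3.23, 2.09 to 2.95 and 1.70 to 2.02, so the 2 ratios do not rank the zones alike. In these bulk samples fewer cells of a type and less RNA per cell cannot be told apart.

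As deposited, zone II lay lower than its flanks for more genes than it lay higher, an order that turned after median centring, with 3927 probe sets higher and 2943 lower and with 1142 peaks and 1008 dips. In the values as deposited, of 22255 probe sets 2027 were higher (9.11%) and 4265 lower (19.2%). Of 11847 genes, 1131 were called higher (9.55%) and 2539 lower (21.4%), and 552 of the higher genes were peaks (4.66% of genes tested) and 1488 of the lower genes were dips (12.6%). The other 579 higher genes included 429 with more signal in zone I than in zone III and 150 with the reverse order. The peaks had a median size of 2.16-fold, and 81 of them reached 4-fold or more. In 494 of the 552 peaks the lowest zone II array read above the highest of the 8 outer arrays, as it did for 9.81% of all genes. The dips had a median size of 2.59-fold, 357 of them reached 4-fold or more, and in 1125 the zone II arrays lay below all 8 outer arrays, against 13.4% of all genes. Peaks and dips were chosen on these same arrays, so their separation largely follows from the choice and is no independent check. In 660 dips the zone II mean signal was under 50, and in 54 peaks both outer means were, where background weighs most, so for those genes the size of the fold change is uncertain. The 4 called-higher genes nearest the 1.5-fold limit had differences of 0.58 to 0.59 and the 4 nearest below it 0.58, so no gap in the data marks the limit.

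**Figure D1:**
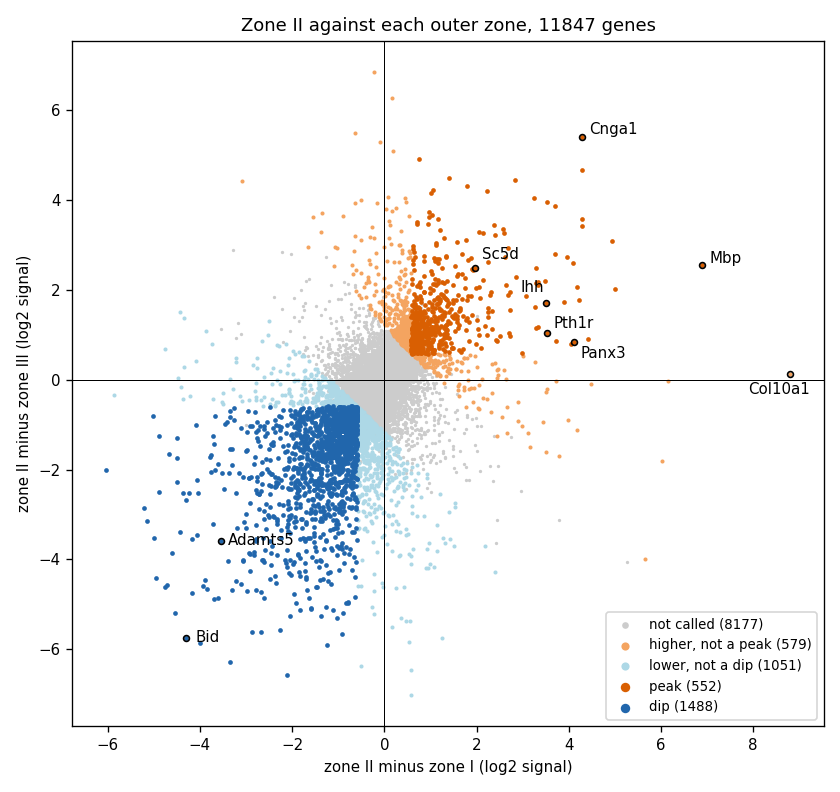
Each point is 1 of 11847 genes, placed by the log2 difference of zone II from zone I (horizontal axis) and from zone III (vertical axis), and coloured by its call. The 552 peaks fill the upper right and the 1488 dips the lower left, while Col10a1 sits far to the right near 0 on the vertical axis, since its zone III signal was as high as that of zone II.

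Ihh, Pth1r and Panx3 marked zone II by their high signal. Ihh, the hedgehog ligand of the growth plate, read 69.4, 51.5, 63.6 and 61.4 in zone I, 743, 623, 608 and 811 in zone II, and 191, 185, 212 and 261 in zone III. Every zone II array lay above every outer array, and zone III stood between the others, with a difference of 2.61 ± 0.13 (SE, adjusted p = 5.3e-08). By quantitative RT-PCR, unlike on the arrays, the authors found that Ihh stayed at higher levels in zone III. Pth1r, the receptor for PTHrP, read 148, 328, 128 and 116 in zone I, 2606, 1958, 1338 and 1815 in zone II, and 1185, 899, 862 and 734 in zone III, a difference of 2.28 ± 0.26 (SE, adjusted p = 2.1e-05). The groups did not overlap, although replicate B of zone I, at 328, stood well above the others of its zone. Panx3, a channel protein of prehypertrophic chondrocytes and osteoblasts, read 216, 239, 339.8 and 417 in zone I, 5277, 4898, 5205 and 4802 in zone II, and 2925, 2698, 2832 and 2827 in zone III. All 4 zone II arrays were highest and all 4 zone I arrays lowest, the difference was 2.47 ± 0.15 (SE, adjusted p = 2.4e-07), and each of its 3 probe sets was called higher.

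Beside the ligand and the PTHrP receptor, the genes that carry or answer the hedgehog signal held more lower than higher ones, as all genes did. Of the 18 Hedgehog and PTHrP genes tested, 3 were higher and 6 lower, against 9.55% and 21.4% of all genes. The median difference was -0.32 against -0.10 for all genes. After ribosomal centring 10 of the 18 were lower, as were 8033 of all 22255 probe sets. Disp1, which releases hedgehog from the cell, was the third higher gene at 0.65 ± 0.18 (SE, adjusted p = 0.011), a call that is lost under ribosomal centring and when replicate D of zone I or of zone II is left out. Ptch1, the receptor and a standard target of the pathway, had zone means of 1769.8, 2382 and 1508 and a difference of 0.55 ± 0.10 (SE, adjusted p = 0.00065), just short of the fold limit and called only after median centring. Gli1, another target, had zone means of 145, 81.2 and 83.9 and a difference of -0.44 ± 0.09 (SE, adjusted p = 0.0023), and Smo, the signal transducer, -0.48 ± 0.13 (SE, adjusted p = 0.0081); neither was called, except both lower after ribosomal centring. The hedgehog co-receptors Gas1 and Boc were lower, at -3.44 and -1.28. Gas1 read 1842, 1746, 1469 and 1731 in zone I, 343, 38.2, 50.8 and 68.1 in zone II, and 519, 485, 478 and 396 in zone III, so replicate A of zone II again stood well above its partners but below all zone I arrays. Hhip, which binds and sequesters hedgehog, dipped at -2.11 ± 0.38 (SE, adjusted p = 0.00069) from zone means of 33.4, 16.04 and 99.7, and the transcription factor Gli2 dipped at -1.35 ± 0.18 (SE, adjusted p = 7.3e-05) and Gli3 was lower at -0.89. The inhibitor Sufu dipped at -0.71, but only 1 of its 2 probe sets was called and the call is lost under quantile or median scaling. Boc was lower in zone II than in zone I alone: its difference from zone III was 0.054. Cdon, the other co-receptor of the list, had zone means of 1219, 311 and 119 and was not called. The remaining 5 genes of the list were not called either. Pthlh, which encodes PTHrP, was not among the genes tested.

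The list of prehypertrophic and hypertrophic genes included peaks, genes as high in zone III as in zone II, and a few lower genes. Of 21 tested, which include Ihh, Pth1r and Panx3, 14 were higher and 3 lower, against 9.55% and 21.4% of all genes. The peaks numbered 9, against 4.66% of all genes, and the median difference was 1.01 against -0.10. Smpd3, a neutral sphingomyelinase needed for skeletal mineralization, read 73.6, 97.4, 69.99 and 68.9 in zone I, 2469, 2486, 2242 and 2704 in zone II, and 670.3, 592, 651 and 525 in zone III, a difference of 3.52 ± 0.12 (SE, adjusted p = 2.4e-09) with no overlap and 3 of 3 probe sets called. Bmp6, a bone morphogenetic protein of hypertrophic chondrocytes, peaked at 1.39, and the forkhead factors Foxa3 and Foxa2, which act in hypertrophic differentiation, peaked at 1.55 and 0.73, the second not under ribosomal centring. Runx3, a partner of Runx2 in this step, peaked at 1.54 with zone means of 43.8, 110.4 and 33.9. Col10a1, the type X collagen gene, had the greatest difference of the list at 4.46 ± 0.13 (SE, adjusted p = 9.2e-10), yet it was no peak: it read 5.68, 5.95, 4.78 and 6.85 in zone I, 2565, 2275, 2569.5 and 2831 in zone II, and 2596, 1814, 2519 and 2476 in zone III. Its arrays in zones II and III overlapped, and zone I was far below both. Mef2c, a transcription factor that drives hypertrophy, was also higher without a peak, with zone means of 676, 2375 and 2054. Sp7, the osteoblast and hypertrophic factor osterix, was called higher at 1.02, although its difference from zone III alone was -0.61. Dlx5, a homeobox factor of the same cells, had 0.59 and likewise -0.61 from zone III alone, with a call that several alternatives end. Alpl, the phosphatase of mineralizing matrix, was lower at -0.91 with zone means of 80.8, 128 and 784, and its difference from zone I alone was 0.79. Hdac4, a repressor of hypertrophy, was lower at -0.84, and Sox4 was lower at -1.23. Cdkn1c, the cell cycle inhibitor p57, was higher at 0.77, a call lost under quantile and ribosomal scaling.

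The 12 largest peaks with separate arrays belonged to several kinds of gene. Cnga1, a subunit of a cyclic nucleotide gated cation channel, read 9.83, 8.86, 15.6 and 31.7 in zone I, 214, 353, 393 and 212 in zone II, and 6.99, 4.77, 8.28 and 6.87 in zone III. Both outer zones read far lower on every array, and the difference was 4.85 ± 0.32 (SE, adjusted p = 3.3e-07). Its outer means were under 50, so the size is uncertain: with 16 added to each signal it was 3.48, below the 4.31 of Mbp. Mbp, best known as myelin basic protein, read 16.3, 25.7, 23.7 and 24.4 in zone I, 2566, 2366, 2648 and 2992 in zone II, and 392, 417, 569 and 426 in zone III. All 8 of its probe sets were called higher, and the difference of the one shown was 4.73 ± 0.14 (SE, adjusted p = 1.4e-09). Chrdl1, which binds and blocks BMPs, read 46.1, 15.9, 49.1 and 40.99 in zone I, 1014, 789, 1311 and 1263 in zone II, and 104, 119, 158 and 128 in zone III, a difference of 4.02 ± 0.27 (SE, adjusted p = 4.3e-07) with 3 of 3 probe sets called. Calml3, a calmodulin-like protein, read 231, 239.7, 183 and 266 in zone I, 1517, 1769, 1535 and 1673 in zone II, and 78.7, 56.7, 85.5 and 77.9 in zone III, so zone II was highest and zone III lowest, with a difference of 3.64 ± 0.13 (SE, adjusted p = 5.2e-09). Slc13a4, a sodium-coupled sulphate transporter, had zone means of 18.4, 212 and 30.8 and a difference of 3.26 ± 0.28 (SE, adjusted p = 2.4e-06). Phlda2, the product of an imprinted gene with a pleckstrin homology domain, had zone means of 117, 540.2 and 29.7. Serinc5, a multipass membrane protein, had zone means of 115, 2044 and 486, and its lowest zone II array, replicate B at 1496, was still above all outer arrays. Gcnt2, which adds branches to glycan chains, had zone means of 26.8, 498 and 144, and Acsm3, a mitochondrial acyl-CoA synthetase, 28.3, 246 and 16.9. Smim5, a small membrane protein, had zone means of 49.2, 943 and 80.3 and Cdh19, a cadherin known from Schwann cell precursors, 25.7, 423 and 71.6.

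**Figure D2:**
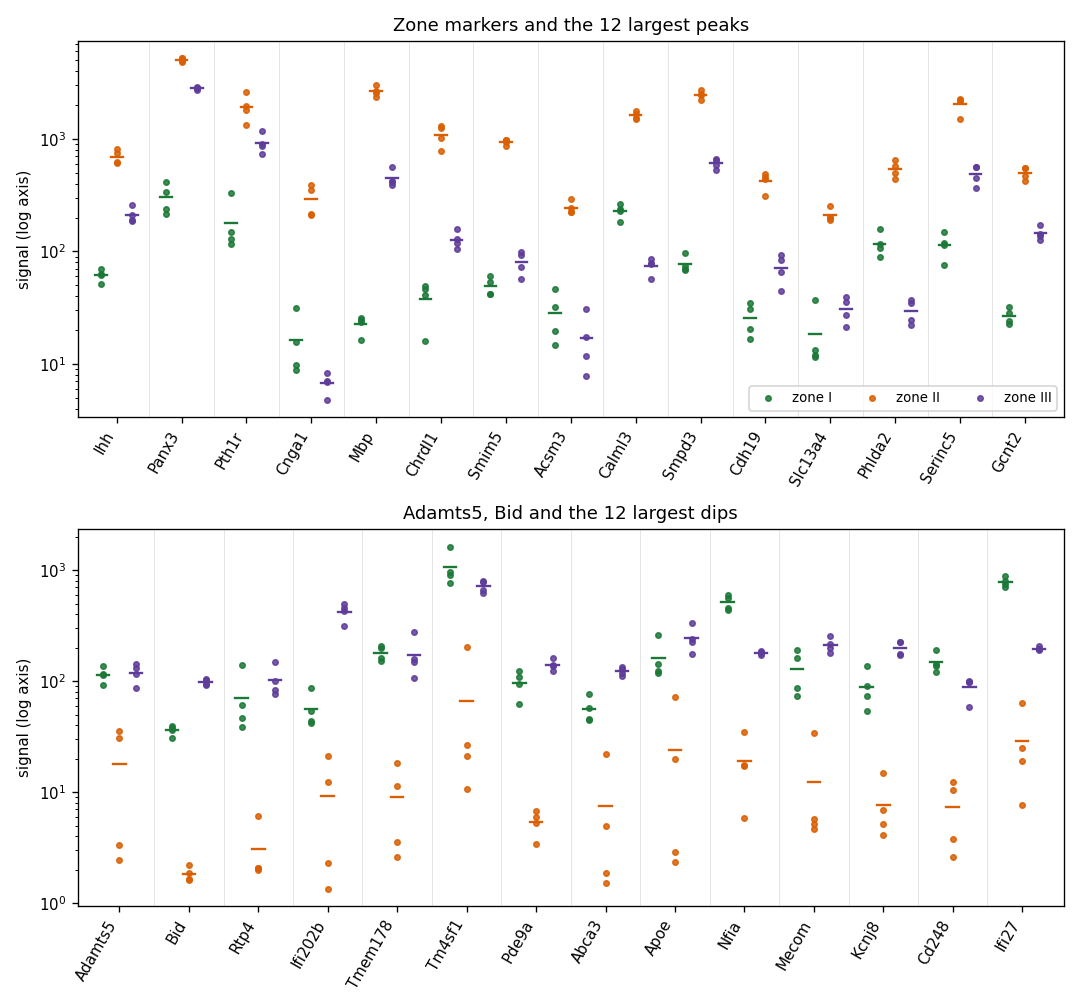
Signal of each array on a log axis for the zone II markers with the 12 largest peaks (upper panel) and for Adamts5, Bid and the 12 largest dips (lower panel), where points are arrays and bars are zone means. In each gene shown the 4 zone II arrays lie beyond all 8 outer arrays. In most dips shown the zone II arrays spread over more of the log axis than the arrays of either outer zone. Rtp4 and Pde9a are exceptions, where the zone I arrays spread slightly more.

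Since Mbp and Cdh19 are also genes of glia, the list of nerve and Schwann cell genes was read beside them. Of its 10 genes tested, which include Cdh19, 3 were higher (2 peaks) and 4 lower (4 dips). Among all genes 9.55% were higher (4.66% peaks) and 21.4% lower (12.6% dips). Not every called member is named here. S100b, a calcium-binding protein made by glia and by chondrocytes, peaked at 2.09 with zone means of 1720.5, 2768 and 261. The axonal neurofilament genes Nefl and Nefm dipped, at -1.85 and -2.56, and so did the growth cone gene Gap43, at -1.03. With 16 added to each signal these were -1.32, -1.12 and -0.93. Sox10, the defining factor of Schwann cells, had zone means of 219.8, 175 and 95.05 and was not called. The summed signal of the list was 3885 to 4306 on the zone II arrays, 2593 to 3204 in zone I and 953 to 1268 in zone III, of which S100b alone gave 2623 to 2869 in zone II.

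Cholesterol synthesis was the list with the greatest share of peaks. Of the 20 genes tested, 19 were higher in zone II and 18 of those were peaks, against 9.55% and 4.66% of all genes, none was lower, and the median difference was 1.30. The zone II arrays lay above all outer arrays for 17 of the 20. In the order of the pathway the calls began with Hmgcs1, which condenses acetoacetyl-CoA and acetyl-CoA, and covered the mevalonate steps (Mvk, Pmvk, Mvd), isoprenoid formation (Idi1, Fdps), squalene formation and closure (Fdft1, Sqle, Lss), and the sterol steps from Cyp51 to Dhcr7. Hmgcs1 read 2278, 2168, 2769.9 and 2226 in zone I, 3899, 4213, 4050.1 and 3855 in zone II, and 2533, 1875, 2348 and 2173 in zone III, a difference of 0.81 ± 0.10 (SE, adjusted p = 5.1e-05). Zone II was highest on every array, the outer zones overlapped, and the call, close to the fold limit, is lost under quantile and ribosomal scaling. Lss, which closes the ring of lanosterol, read 310.3, 392, 359 and 308 in zone I, 766, 923, 879 and 1052 in zone II, and 265, 257, 274 and 308 in zone III, a difference of 1.55 ± 0.11 (SE, adjusted p = 6e-07). Cyp51, which removes the first methyl group from lanosterol, read 440.5, 540.1, 478 and 541 in zone I, 1302, 1373, 1256 and 1130.2 in zone II, and 389.8, 345, 373 and 344 in zone III, a difference of 1.57 ± 0.10 (SE, adjusted p = 2.1e-07). Msmo1, the sterol C4 methyl oxidase, read 952, 801, 757 and 916 in zone I, 2928, 2734, 2105 and 1965 in zone II, and 601, 468, 594 and 579 in zone III, a difference of 1.80 ± 0.13 (SE, adjusted p = 6.8e-07). In each of these 3 genes zone I lay somewhat above zone III, and zone II lay well above both. Sc5d, the sterol C5 desaturase, had the largest difference of the list at 2.23 ± 0.12 (SE, adjusted p = 1e-07), with zone means of 259, 1018 and 182. That value belongs to the brightest of its 3 probe sets, and the other 2 were not called, with the lowest at 0.25. Fdps, which makes farnesyl diphosphate, had zone means of 252, 746 and 216 and a difference of 1.67 ± 0.13 (SE, adjusted p = 1.2e-06).

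The regulators in the list did not move together. Insig1, a sterol-responsive retention protein, peaked at 0.85 ± 0.16 (SE, adjusted p = 0.00082), a call lost under ribosomal centring, and Stard4, a sterol carrier, peaked at 1.01 ± 0.13 (SE, adjusted p = 5.8e-05). Ebp, a sterol isomerase, was higher at 0.61 but no peak, since zone III was within 1.5-fold of zone II. Srebf2, the transcription factor that drives this pathway, had zone means of 177, 139 and 160.01 and a difference of -0.30 ± 0.15 (SE, adjusted p = 0.13), and was the single member not called. The number of higher members was 18 after quantile normalization, 19 after median centring and 13 after ribosomal centring, with medians of 1.23, 1.51 and 0.98, and 1 member was called lower after ribosomal centring. Of all 22255 probe sets, 2514, 3927 and 931 were higher under these scalings. Of the outer zones, zone I had the higher summed signal, 9132 to 10458 against 7611 to 8679 in zone III and 20481 to 21237 in zone II.

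**Figure D3:**
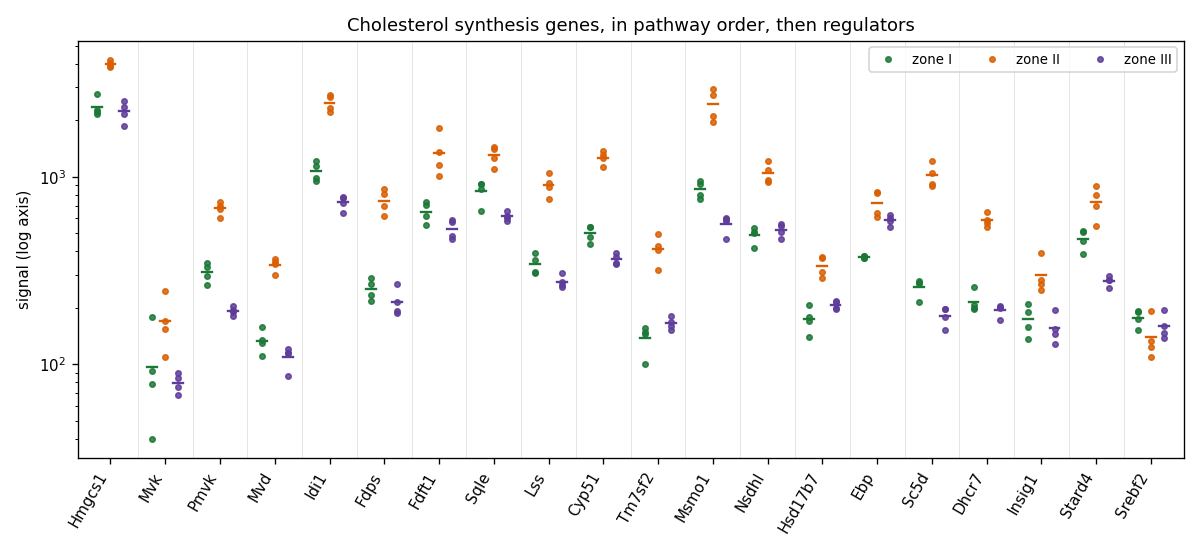
Signal of each array on a log axis for the 20 cholesterol genes tested, in pathway order from Hmgcs1 to Dhcr7, followed by Insig1, Stard4 and Srebf2, where points are arrays and bars are zone means. Zone II (orange) is the highest group in every gene but Srebf2, whose 3 zones overlap.

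Promoters of the pathway were inspected because so many of its genes moved together. RefSeq promoter windows (GRCm38.p6, 250 bases before to 50 bases after a gene's start) were at hand for 16 of the 20 genes. The letters CCAAT, the box bound by NF-Y, were looked for on both strands, so that ATTGG counts too, and were present in 16 of the 16, against 42.6% of the 9578 tested genes with a window, 49.5% of the 442 peaks with one and 41.1% of all 27025 genes in the table. The letters TCACNCCAC, 1 form of the sterol response element, were present on either strand in 1 of the 16, Hmgcs1, against 1.39% of tested genes. Only this exact string was searched, so other forms of the element were not counted and a window without it may still hold one. No letters of one motif overlap those of the other in the windows printed. A match is a description of the sequence, and these motifs were chosen after the signals of the genes were known. The windows of the cholesterol genes had a median GC content of 63.5%, and those of all tested genes 61.0%. The 150 bases before the start of the 4 most changed genes with a window and of Hmgcs1 are shown 5′ to 3′ on the gene's strand, with CCAAT or ATTGG and the sterol response element of Hmgcs1 in capitals.
Sc5d (chr9:42264301-42264450, minus strand): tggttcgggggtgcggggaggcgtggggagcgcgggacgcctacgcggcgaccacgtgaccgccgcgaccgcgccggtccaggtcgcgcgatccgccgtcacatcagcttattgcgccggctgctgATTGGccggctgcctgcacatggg
Msmo1 (chr8:64733579-64733728, minus strand): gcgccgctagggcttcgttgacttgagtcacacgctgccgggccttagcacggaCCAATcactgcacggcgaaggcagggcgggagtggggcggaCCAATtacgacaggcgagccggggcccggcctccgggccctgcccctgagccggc
Cyp51 (chr5:4104698-4104847, minus strand): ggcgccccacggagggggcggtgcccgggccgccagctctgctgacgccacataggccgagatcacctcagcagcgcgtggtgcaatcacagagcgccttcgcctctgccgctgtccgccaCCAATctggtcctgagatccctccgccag
Lss (chr10:76531455-76531604, plus strand): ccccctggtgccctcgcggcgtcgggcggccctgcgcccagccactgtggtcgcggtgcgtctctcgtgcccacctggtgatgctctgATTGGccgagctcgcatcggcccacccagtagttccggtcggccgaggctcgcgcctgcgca
Hmgcs1 (chr13:119690201-119690350, plus strand): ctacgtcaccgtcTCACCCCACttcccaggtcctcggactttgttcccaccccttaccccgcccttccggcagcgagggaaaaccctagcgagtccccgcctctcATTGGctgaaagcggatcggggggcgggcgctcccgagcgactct
Counted from the start, where the base before it is -1, the box begins at -24 in Sc5d, at -96 and -55 in Msmo1, at -29 in Cyp51, at -62 in Lss and at -45 in Hmgcs1. It lies on the gene's own strand in Msmo1 and Cyp51 and on the other strand in Sc5d, Lss and Hmgcs1. The sterol response element of Hmgcs1 begins at -137.

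Motifs of factors known in hypertrophy were searched over the peaks as well. The Runx core ACCACA, on either strand, was present in 16.7% of the 442 peaks with a window and in 14.6% of the 9578 tested genes with one. The Gli motif GACCACCCA was present in 1 peak, or 0.226%, against 0.261% of tested genes, and TATAAA in 8.14% against 9.26%. Of the dips 74.9% had a window, under the 80% taken as the least for such a reading, so their motifs were not read.

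Cartilage matrix genes were mostly higher in zone II, with zone I close behind and zone III far lower. Of 22 tested, 17 were higher, 5 were peaks and none was lower, against 9.55%, 4.66% and 21.4% of all genes. The median difference was 1.23. The peaks numbered 2 after quantile normalization. Col2a1, the type II collagen gene, had zone means of 3701, 4731 and 2064, and Acan, the main cartilage proteoglycan, 2772, 4049.9 and 1397. Both were called higher, Col2a1 not after quantile or ribosomal scaling, and neither was a peak. By quantitative RT-PCR the authors found less Col2a1 in zone II than in zone I. Sox9, the master factor of chondrocytes, had zone means of 679.7, 723 and 80.7, nearly level between zones I and II. The 5 peaks were Prelp, a leucine-rich matrix protein (2.84), Snorc, a small membrane proteoglycan (1.62), the link protein Hapln1 (1.41), the receptor Fgfr3 (1.29) and Comp, the cartilage oligomeric matrix protein (1.28). Snorc read 2192, 2060.5, 2232 and 2014 in zone I, 4487, 5355, 4462 and 4284 in zone II, and 1048, 784, 1299.8 and 1217 in zone III, with zone II highest throughout.

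Genes that build and sulphate glycosaminoglycan chains followed, with 14 of 27 higher, 8 of them peaks, and 1 lower. Among all genes these shares were 9.55%, 4.66% and 21.4%. Slc26a2, the sulphate transporter whose loss causes chondrodysplasia, read 797, 1456, 1207 and 868 in zone I, 1626, 1905, 2319 and 2276 in zone II, and 206, 184, 177 and 162 in zone III, a difference of 2.20 ± 0.17 (SE, adjusted p = 8.2e-07). No zone II array overlapped an outer one, and zone III was lowest. Chst11 and Chst12, chondroitin 4-sulphotransferases, peaked at 1.37 and 1.86, Slc35d1, which brings nucleotide sugars into the endoplasmic reticulum, at 1.76, and Ugp2, which makes UDP-glucose, at 1.36. Papss2, which makes the sulphate donor, was higher at 1.63 with zone means of 2870.5, 3712 and 504 and was no peak. Ext1, a heparan sulphate polymerase, was the lower member at -0.67, a call lost after median centring. The count of higher members was 14 after quantile normalization and 11 after ribosomal centring, with medians of 0.69 and 0.30. Of all 22255 probe sets, 2514 and 931 were higher under these scalings.

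Secretory and metabolic lists showed smaller differences. Among all genes 9.55% were higher, 4.66% were peaks and 21.4% were lower. Of all 22255 probe sets, 3927 were higher and 2943 lower after median centring, and 931 and 8033 after ribosomal centring. Of 38 genes for folding in the endoplasmic reticulum and collagen modification, 12 were higher, 6 of them peaks, and 1 lower, and the higher genes numbered 28 after median centring and 5 after ribosomal centring. P3h2, a collagen prolyl 3-hydroxylase, read 150.4, 145, 151 and 116 in zone I, 819.7, 692, 576 and 726 in zone II, and 174, 184, 179.7 and 183 in zone III, a difference of 2.14 ± 0.11 (SE, adjusted p = 7.2e-08) and far the largest of the list. The next peaks were P4ha2, a prolyl 4-hydroxylase subunit (1.18), the stress-induced Creld2 (1.15) and Manf (0.99). Of 25 glycolysis and hypoxia genes, 10 were higher and 4 lower, with 16 and 1 after median centring and 5 and 6 after ribosomal centring. Slc2a1, the glucose transporter GLUT1, read 1124, 1378, 1173 and 1043 in zone I, 3217, 2962, 2904 and 3245 in zone II, and 1070.1, 949, 1114 and 1187 in zone III, a difference of 1.45 ± 0.10 (SE, adjusted p = 4.7e-07). Slc16a3, which exports lactate, and the aldolase gene Aldoc peaked at 1.70 and 1.73, and Bnip3, a hypoxia-induced mitophagy gene, at 1.02. The prolyl hydroxylase gene Egln3 and the hexokinase gene Hk1 dipped at -0.94 and -0.78. Car9 was lower at -0.78, but only against zone I: its difference was -2.32 from zone I alone and 0.77 from zone III alone. Vegfa was lower at -0.68, with zone means of 209, 191 and 449.5. The calls of Hk1, Car9 and Vegfa are lost after median centring.

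Genes of the basic cell machinery had medians above 0, with a size and a number of calls that depended on the scaling. As deposited, the median differences were 0.46 for 32 proteasome genes (8 higher) and 0.42 for 60 oxidative phosphorylation genes (9 higher). They were 0.39 for 40 ribosomal protein genes (0 higher) and 0.36 for 28 cytosolic and mitochondrial chaperones (2 higher). None of the 4 lists had a lower member, and of all genes 9.55% were higher and 21.4% lower. In zone II 35 ribosomal protein genes had more signal at an unadjusted limma p under 0.05. Of all 11847 genes 2700 did, and a call also needs a 1.5-fold difference. After median centring the medians were 0.68, 0.63, 0.61 and 0.57, in the same order, with 26, 40, 30 and 14 genes higher, and after quantile normalization 0.22, 0.11, 0.02 and 0.08, with 1, 4, 1 and 0 higher. Of all 22255 probe sets, 3927 were higher after median centring and 2514 after quantile normalization. Ribosomal centring gave 0.14 for the proteasome, 0.10 for oxidative phosphorylation and 0.03 for the chaperones, and sets the ribosomal genes near 0 by construction. Genes of DNA replication had 0 of 35 called higher and 3 lower, and those of mitosis 0 of 27 higher and 1 lower, with medians of -0.26 and -0.11. At an unadjusted p under 0.05 the limma counts of higher genes were 2 and 3 and those of lower genes 17 and 7. Over all 11847 genes these limma counts were 2700 higher and 4100 lower. After ribosomal centring 17 replication genes and 8 mitosis genes were called lower, as were 8033 of all 22255 probe sets.

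The Wnt and BMP families held both peaks and dips, and their shares of dips were near the 12.6% of all genes. Of 36 Wnt genes tested, 10 were higher (6 peaks) and 13 lower (5 dips), against 9.55% (4.66%) and 21.4% (12.6%) of all genes. The ligands Wnt4, Wnt5b, Wnt11 and Wnt10b peaked at 2.22, 1.93, 1.90 and 1.53. Wnt4 read 92.4, 92.05, 80.7 and 60.6 in zone I, 848, 732, 799 and 756 in zone II, and 391, 333, 396 and 294 in zone III, with no overlap between zones. The R-spondin gene Rspo3, which enhances Wnt signals, peaked at 1.25, and Axin2, a common target, at 0.86, a call lost under ribosomal centring. The antagonist Dkk2 dipped at -3.39, as did the receptors Fzd5, Fzd4 and Fzd6, at -2.13, -1.56 and -1.31. Of 32 BMP and TGF-beta genes, 7 were higher (5 peaks) and 8 lower (4 dips). Beside Chrdl1 and Bmp6, the peaks were Gdf10 (2.35), the antagonist Nog (0.90) and Bmp4 (0.85). The last 2 calls are lost under ribosomal centring, and that of Nog also without any one of 5 single arrays. Smad6, the inhibitory Smad induced by BMPs, dipped at -1.80, Inhba, an activin subunit, at -1.52, and the TGF-beta receptor Tgfbr2 at -1.32. Of 35 axon guidance genes 20 were lower and 2 higher, against 21.4% and 9.55% of all genes. The single peak, Sema3d, a secreted semaphorin, had zone means of 204, 1320.00 and 337 (2.35 ± 0.20 (SE, adjusted p = 1.7e-06)), while Slit3 and the receptors Nrp2 and Robo1 dipped at -3.04, -2.56 and -2.10.

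Adamts5 and Bid marked zone II by their low signal. Adamts5, an aggrecan-degrading protease, read 113, 93.3, 116 and 138 in zone I, 35.4, 3.38, 2.48 and 31.1 in zone II, and 117, 133, 87.1 and 142 in zone III. In zone II replicates A and D read well above B and C, and all 4 lay below every outer array. The difference was -3.56 ± 0.63 (SE, adjusted p = 0.00061), 3 of 3 probe sets were called, with the other 2 closer to 0, down to -0.97, and -2.33 where the median of the probe sets was taken. The difference of the probe set shown was -2.90 to -4.18 when single arrays were left out, nearest to 0 without replicate C of zone II, and -2.11 on the log2 scale with 16 added to each signal. Bid, which links death receptors to the mitochondrial route of apoptosis, read 36.3, 37.96, 39.9 and 30.6 in zone I, 2.23, 1.60, 1.66 and 1.88 in zone II, and 103, 104, 93.7 and 92.6 in zone III. Zone II read far below both outer zones on each array, and the difference was -5.02 ± 0.11 (SE, adjusted p = 1.4e-10), or -2.11 with 16 added.

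The families of both genes were read beside them. Dips outnumber peaks among all genes too, at 12.6% against 4.66%, and 21.4% of all genes were lower. Of 23 ADAMTS and matrix metalloproteinase genes, inhibitors included, 12 were lower (10 dips) and 2 higher, with a median of -0.60. Mmp14, the membrane protease that activates others, read 957, 989.97, 911 and 666 in zone I, 595, 365, 354 and 406 in zone II, and 2754, 2392, 2323 and 2336 in zone III, with zone II lowest throughout (-1.80 ± 0.15 (SE, adjusted p = 2.1e-06)). Mmp11, Adamts6 and Adamts9 dipped at -2.76, -1.69 and -1.63, or -1.56, -1.24 and -1.55 with 16 added to each signal. The higher genes were Mmp13, the collagenase of late hypertrophic cells, at 2.11, and Adamts3, a procollagen peptidase, at 1.07. Mmp13 was called higher with zone means of 15.2, 983 and 3341, and its difference from zone III alone was -1.80. Mmp9, the gelatinase of osteoclasts, had zone means of 70.8, 424 and 4515 and was not called (-0.60). Of 25 Bcl2 family and caspase genes, 10 were lower (9 dips) and 2 higher. The dips included the death-promoting BH3 genes Bik, Pmaip1, Bcl2l11 and Bmf (-2.24, -3.17, -1.67 and -1.42) and the inflammatory caspase genes Casp1, Casp4 and Casp12 (-4.25, -2.65 and -3.91). With 16 added to each signal the BH3 genes had -1.38, -1.04, -1.56 and -1.31, in the same order, and the caspase genes -1.55, -1.25 and -2.04. Bik, Pmaip1, Casp1 and Casp4 had no zone mean of 100 or more, so the size of their dips is uncertain. Bcl2l11, the gene for Bim, read 333, 232, 372 and 253 in zone I, 132, 172, 101 and 141 in zone II, and 622, 619, 622 and 626 in zone III. The higher genes were Bnip3, above, and the anti-apoptotic Bcl2 at 1.06, with 3 of its 5 probe sets called.

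Genes that FGF signals induce were low in zone II while the receptor Fgfr3 was at its highest. Of 19 FGF genes tested, 13 were lower, against 21.4% of all genes, 12 of them dips, and 2 were higher, with a median of -1.28. Fgfr3, the receptor that restrains chondrocyte division, read 1486, 1873, 1923 and 1977 in zone I, 3344, 2993, 3191 and 2922 in zone II, and 728, 934, 918 and 1017 in zone III, a difference of 1.29 ± 0.11 (SE, adjusted p = 2.7e-06). Fgfr1 read 584, 528, 591 and 414 in zone I, 274, 231, 237 and 297 in zone II, and 797, 625, 706 and 922 in zone III, a difference of -1.28 ± 0.14 (SE, adjusted p = 1e-05), so the receptors ran in opposite directions with no overlap of zone II and the outer arrays in either. The feedback inhibitors Spry4, Spry2 and Spry1 dipped at -3.19 ± 0.26 (SE, adjusted p = 1.5e-06), -1.30 and -1.22. Spry2 read 206, 215, 254 and 239 in zone I, 117, 63.9, 57.2 and 103 in zone II, and 167, 167, 151 and 232 in zone III. Etv5, an ETS factor induced by FGF, read 376, 529, 375 and 342 in zone I, 87.8, 58.9, 49.6 and 61.1 in zone II, and 267, 239, 278 and 298 in zone III, a difference of -2.38 ± 0.16 (SE, adjusted p = 3.5e-07). Its zone II arrays were all below its outer arrays. Dusp6, a phosphatase that damps ERK, read 145, 101, 101 and 108 in zone I, 45.5, 35.6, 24.5 and 35.7 in zone II, and 414, 289, 289.7 and 312 in zone III, a difference of -2.46 ± 0.17 (SE, adjusted p = 4.7e-07). Dusp4 dipped as well at -3.57, but mainly against zone III, with zone means of 16.5, 11.7 and 396. Of the ligands, Fgf7 and Fgf9 dipped at -2.57 and -2.07, and Fgf18 had zone means of 92.9, 26.4 and 12.03 and was not called. Etv4, Etv1, Fgf2 and Fgf10 were not tested. The number of lower members was 13 after quantile, median and ribosomal scaling. Of all 22255 probe sets, 3194, 2943 and 8033 were lower under these scalings. Fibroblasts and vessels also carry these genes, and their markers were low in zone II as given below. Their part in the FGF result was not tested.

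**Figure D4:**
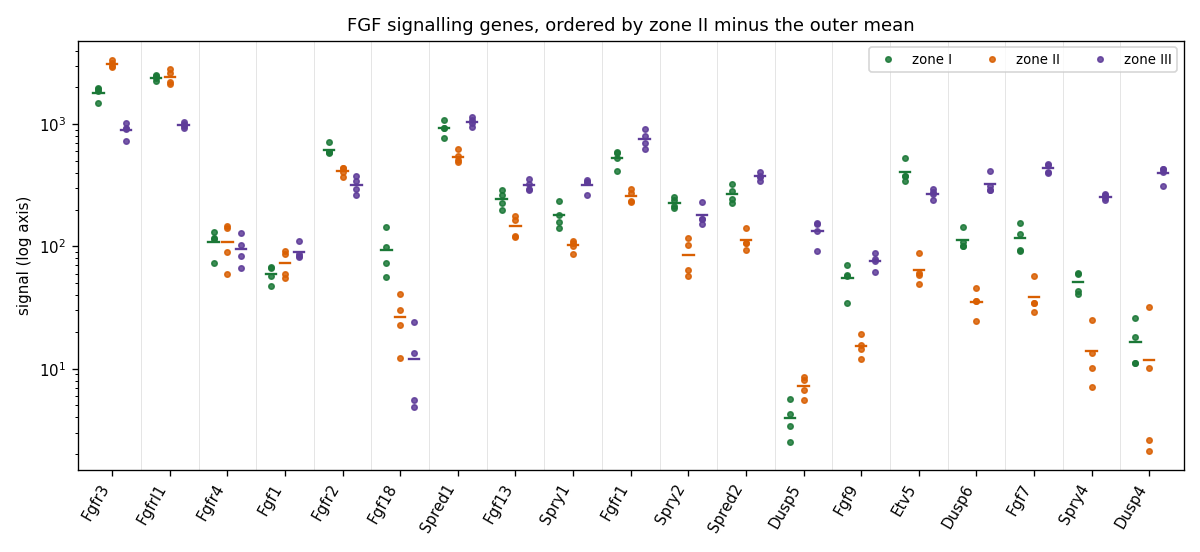
Signal of each array on a log axis for the 19 FGF signalling genes tested, ordered from the highest to the lowest difference of zone II from the outer mean, where points are arrays and bars are zone means. Zone II is the highest group for Fgfr3 and the lowest for the 12 dips, among them Spry1, Spry2, Spry4, Etv5 and Dusp6.

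The 12 largest dips included genes that interferons induce and genes of vessels and stroma. Their order rests on low zone II signals: with 16 added to each signal Rtp4 had -2.34 and Ifi202b -2.86, nearer to 0 than Tm4sf1 at -3.98, Ifi27 at -3.34 and Nfia at -3.26. Rtp4, a receptor chaperone induced by interferon, read 139, 46.2, 60.7 and 38.96 in zone I, 6.13, 2.07, 2.07 and 1.99 in zone II, and 99.8, 149.7, 82.9 and 76.4 in zone III, a difference of -4.87 ± 0.38 (SE, adjusted p = 9.9e-07). Ifi27, another interferon gene, read 880.1, 752, 800.4 and 704 in zone I, 64.3, 19.2, 25.1 and 7.64 in zone II, and 193, 206, 192 and 195 in zone III, a difference of -4.15 ± 0.39 (SE, adjusted p = 4.3e-06) with both its probe sets called. Ifi202b, a DNA-binding interferon gene, had zone means of 56.8, 9.33 and 424. Of the 26 genes of the interferon and antigen list 13 were tested. Of these 7 were lower (5 dips) and 1 higher, against 21.4% and 9.55% of all genes, with a median of -0.80. The median was -0.26 from zone I alone and -1.01 from zone III alone. Summed signals were 2484 to 3148.5 in zone II, overlapping 3097.5 to 3830 in zone I, and 5296 to 5744 in zone III. Nfia, a nuclear factor I gene, read 557, 603, 441 and 453 in zone I, 17.7, 5.88, 34.9 and 17.4 in zone II, and 185, 172, 189 and 178 in zone III, a difference of -4.26 ± 0.34 (SE, adjusted p = 1.2e-06) and 3 of 3 probe sets called. Tm4sf1, a membrane protein of endothelial cells, read 1632, 907, 772 and 967 in zone I, 205, 21.1, 26.8 and 10.7 in zone II, and 800.1, 782, 629.7 and 663 in zone III, and Mecom, a transcription factor, 192, 87.6, 74.2 and 162 in zone I, 33.9, 5.14, 5.74 and 4.72 in zone II, and 199, 215, 255 and 180.01 in zone III. In both of these genes replicate A of zone II read far above its partners, as given. Cd248 and Kcnj8, genes of pericytes and stroma, had zone means of 148, 7.32 and 88.6 and 88.6, 7.75 and 199.98, and Apoe, a lipid carrier made by macrophages among others, 162, 24.1 and 245. Pde9a, a cyclic GMP phosphodiesterase, had zone means of 97.3, 5.38 and 140.3, Tmem178 180.1, 8.98 and 173 and the lipid transporter Abca3 55.9, 7.58 and 124.

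Markers of endothelial cells, macrophages and fibrous tissue were low in zone II as whole lists. All 21 endothelial genes tested were lower, 18 of them dips, against 21.4% and 12.6% of all genes, with a median of -2.23 and summed signals of 979 to 1720 in zone II, 2031 to 3449 in zone I and 7510 to 8166 in zone III. Cldn5, a tight junction protein of endothelium, read 217, 95.03, 125 and 97.3 in zone I, 94.4, 52.3, 37.9 and 33.6 in zone II, and 458, 611, 585 and 526 in zone III. Kdr and Cdh5, a VEGF receptor and VE-cadherin, had zone means of 148, 70.4 and 513 and 119, 47.3 and 384. Of 18 macrophage genes 17 were lower (14 dips), with a median of -2.02 and summed signals of 1003 to 1720 in zone II against 2245 to 3641 and 7843 to 9554 in zones I and III. Csf1r, the macrophage growth factor receptor, had zone means of 578, 286 and 2749, and Laptm5, a lysosomal protein of leukocytes, 302, 166 and 1389. Of 29 genes of perichondrium, tendon and fibrous tissue 24 were lower (17 dips), with a median of -1.48 and summed signals of 13382 to 17423 in zone II against 31630 to 40405 and 24764 to 28602. Postn had zone means of 2931, 453 and 1527, Fap, a protease of activated fibroblasts, 829.6, 136 and 2121, and Pdgfra, the receptor of mesenchymal cells, 1191, 156 and 711. Lum, a small proteoglycan, was an exception with zone means of 2826, 3584 and 2270.3 and was called only after median centring, as higher. Of 15 skeletal muscle genes 2 were higher and 2 lower, of 4 erythroid genes 1 was lower and of 4 epidermal genes 1 was higher, and the summed zone II signals of these 3 lists overlapped those of the outer zones. No signal of the table was 0 or below, so none of these markers can be called absent. The part of these cells in the dips was not tested.

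Osteoclast and bone genes followed zone III rather than dipping. Among all genes 21.4% were lower, 12.6% dipped and 9.55% were higher. Of 15 osteoclast genes 13 were lower but only 2 were dips, with summed signals of 1335 to 2497 in zone II and 1372 to 1568 in zone I against 15828 to 18800 in zone III. Ctsk, the osteoclast collagenase, dipped with zone means of 439, 248 and 3416, whereas Acp5, the gene for TRAP, had 112, 166 and 2362. Of 15 bone matrix and osteoblast genes 5 were higher and 7 lower. Ibsp, bone sialoprotein, read 100.1, 26.4, 29.2 and 61.4 in zone I, 4033, 2688, 3478 and 3249.8 in zone II, and 3568, 3193, 3285 and 3473 in zone III, called higher at 3.07 with zones II and III overlapping, and Col1a1, the type I collagen gene, had zone means of 1155, 828 and 3792 and was lower at -1.41. Of 10 resting and periarticular genes 5 were lower, 4 of them dips. Among these Prg4, the joint lubricant, had zone means of 97.7, 18.9 and 48.7 and Abi3bp, a matrix protein, 178, 34.7 and 64.4.

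**Figure D5:**
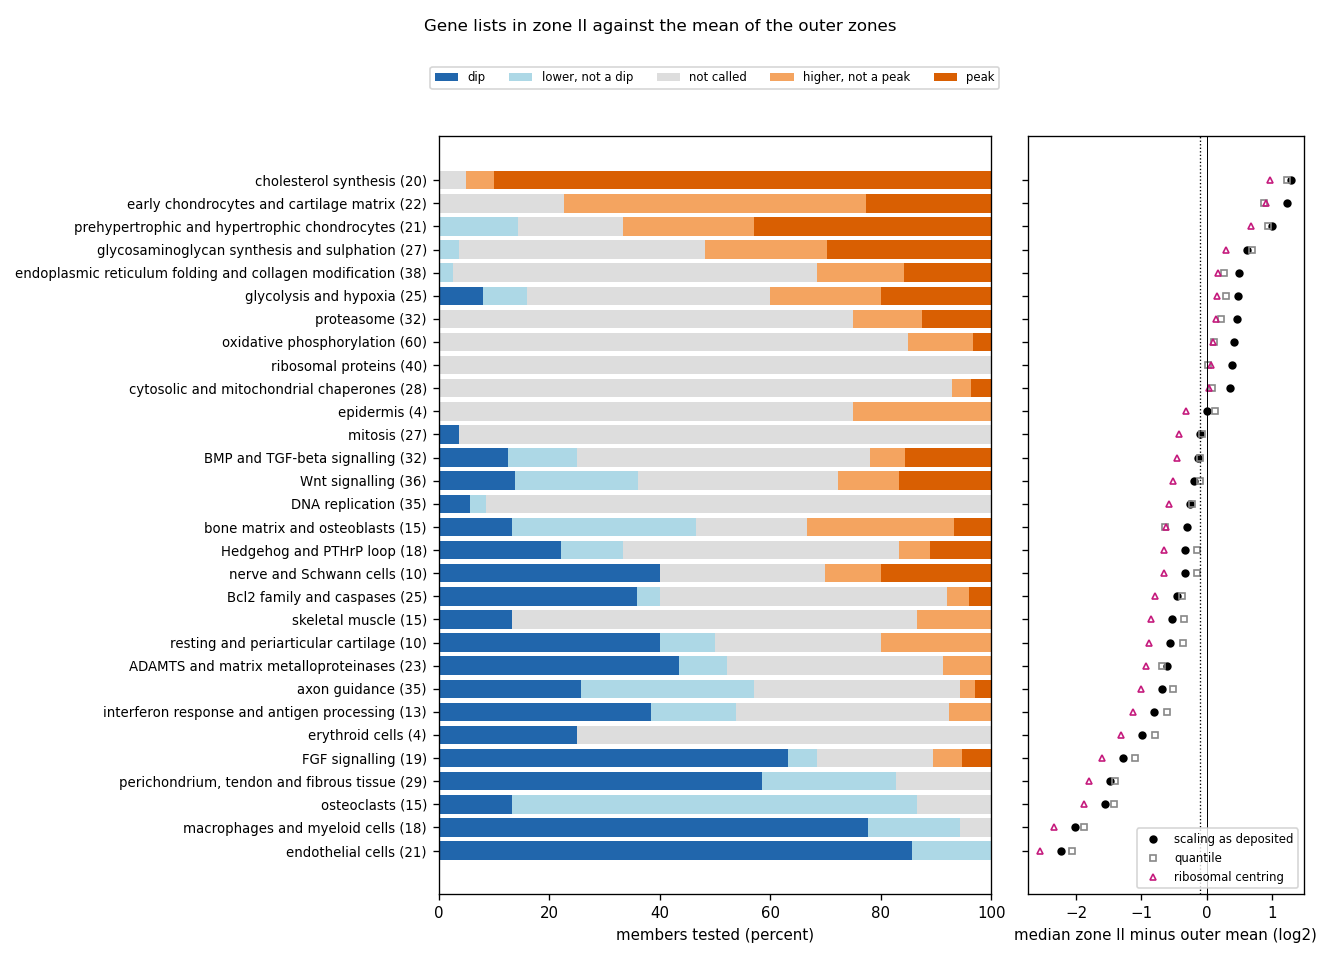
Left, the share of tested members of each list (number in brackets) that dipped, were lower, were not called, were higher or peaked, as stacked bars in percent. Right, the median log2 difference of each list as deposited (filled circles), after quantile normalization (squares) and after ribosomal centring (triangles), with the median of all genes as a dotted line. Cholesterol synthesis is at the top, with a median of 1.30, and endothelial genes are at the bottom, with -2.23.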

How the data were processed

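RNA of 12 pools of microdissected tibia segments (4 per zone) was measured on the 1-colour Affymetrix Mouse Genome 430 2.0 array. The deposited intensity values are linear signals per probe set that the authors had already normalized: the 2% trimmed mean was 150.0 on each array. The algorithm behind them is not given clearly in the sources used here. The members of the gene lists, the lists and the tests were chosen with earlier results of these data known. Values were taken as log2 with nothing added, Affymetrix controls (64) were dropped, and probe sets with a mean signal under 50 in all 3 zones were left out. limma 3.58.1 in R 4.3.3 (lmFit, contrasts.fit, eBayes) was fitted on all 12 arrays with no covariate, tested on simulated data, and adjusted by Benjamini-Hochberg. Each gene was represented by its brightest probe set over the 12 arrays, named from the platform annotation: 34945 probe sets had 1 symbol, 932 several and 9160 none. Signals of different genes were not ranked. The arrays were hybridised in 3 fluidics runs, each with all 3 zones. The sources do not say whether letters mark litters. Samples with the same letter deviated together, at a correlation over 0.1, in 8 of 12 pairs, and were not treated as pairs. Genes named were the zone markers, the 12 largest peaks and dips with separate arrays and a zone mean of at least 100, up to 5 members per list and direction, and any member of the first 2 lists. Others (such as Hmgcs1, Col2a1 and Fgfr1) were chosen after their values were seen. Alternatives changed the filter, offset, scaling, blocking, variance estimate and probe set summary, and left out each array. The number of arrays limits the precision. The p-values measure the spread between the arrays of a zone, with all 12 arrays taken as independent.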

Additional observations from a re-analysis of the deposited data

Results flagged for a closer look

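In each zone the 4 arrays were checked for 1 that lay far from the other 3, by Dixon's ratio of gap to range. Of 486 groups, 37 (7.61%) held such an array, and chance gives about 1 in 20. The most frequent was replicate A of zone II, in 11 groups, each time as the highest. On that array blood, vessel, fibrous and leukocyte genes stood out: Casp1 at 13.8 against 0.518 to 1.43, Cdh5 at 84.2 against 33.8 to 36.3, Col1a1 at 1342 against 621 to 678, Gas1 at 343 against 38.2 to 68.1. So did Hbb-y at 3013 against 295 to 418, Laptm5 at 229 against 136 to 149.9, Mecom at 33.9 against 4.72 to 5.74, Mmp9 at 872 against 238 to 321. The last of this kind were Postn at 815 against 296 to 372, Rtp4 at 6.13 against 1.99 to 2.07 and Tm4sf1 at 205 against 10.7 to 26.8. In zone II 1 array read far above its partners for Bik (replicate D, 17.0 against 8.90 to 10.2). In zone II 1 array read far below its partners for Serinc5 (replicate B, 1496 against 2192 to 2251). In zone I 1 array read far above its partners for Apoe (replicate A, 263 against 118 to 142), Dhcr7 (replicate C, 259 against 196 to 206), Dusp6 (replicate A, 145 against 101 to 108) and Egln3 (replicate B, 424 against 282 to 299.8). In zone I 1 array read far above its partners for Nefm (replicate A, 84.5 against 55.7 to 59.2), Pth1r (replicate B, 328 against 116 to 148), Sema3d (replicate D, 314 against 156 to 175) and Slc13a4 (replicate C, 36.8 against 11.6 to 13.2). In zone I 1 array read far above its partners for Smpd3 (replicate B, 97.4 against 68.9 to 73.6). In zone I 1 array read far below its partners for Sc5d (replicate A, 215 against 271 to 278) and Sox9 (replicate D, 481 against 721 to 764). In zone III 1 array read far above its partners for Casp1 (replicate B, 125 against 83.2 to 89.8), Hbb-y (replicate A, 3223 against 1241 to 1457), Mmp14 (replicate A, 2754 against 2323 to 2392) and Nefl (replicate A, 48.0 against 41.2 to 42.0). In zone III 1 array read far above its partners for Papss2 (replicate C, 555 against 479 to 492). In zone III 1 array read far below its partners for Bnip3 (replicate B, 1271 against 1843 to 1930.2), Cd248 (replicate D, 59.1 against 97.8 to 99.6), Col10a1 (replicate B, 1814 against 2476 to 2596) and Fzd5 (replicate D, 315 against 393 to 406). In zone III 1 array read far below its partners for Hk1 (replicate A, 436 against 544 to 558), Msmo1 (replicate B, 468 against 579 to 601), Prelp (replicate B, 47.7 against 65.6 to 68.9) and Spry1 (replicate C, 264 against 335 to 347). None of these genes that was called lost its call when 1 array was left out, and without replicate A of zone II Hbb-y and Mmp9 were called lower, at -2.04 and -1.02. Hbb-y was also called lower with the letters as a block, with array weights and after ribosomal centring, and Mmp9 under the last 2.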

How the results depend on the processing

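The counts depended most on the scaling of the arrays and on how a peak was defined. Probe sets higher in zone II (2027 in the reported analysis) numbered 3927 after median centring, 931 after ribosomal protein centring and 4202 with no fold threshold, and probe sets lower in zone II (4265) numbered 2943 after median centring and 8033 after ribosomal centring. Genes that peak in zone II (552) numbered 1142 after median centring, 242 after ribosomal centring, 1205 where each outer zone had to differ at an adjusted p under 0.05 with no fold threshold, and 1162 where the 4 zone II arrays had only to lie above the 8 outer arrays. Genes that dip in zone II (1488) numbered 1008 after median centring and 2824 after ribosomal centring. Both centrings shift every gene of an array alike, so the median over all genes moved with them, as given above. Under the other alternatives these counts stayed within 1.5 times the reported ones. Leaving out single arrays gave 1967 to 2112 probe sets higher, 4084 to 4443 lower, 540 to 583 peaks and 1411 to 1571 dips, the last without replicate A of zone II.

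With the letter of the sample as a replicate block the counts were 2059 probe sets higher, 4335 lower, 553 peaks and 1498 dips, and among the genes named the block changed 1 call, that of Hbb-y to lower at -1.27. Deviations of samples with the same letter from their zone means correlated at -0.13 to 0.26, over 0.1 in 8 of 12 pairs. Pairs that shared neither letter nor fluidics run correlated at -0.30 to 0.23. The zones were cut from the same litters, but the labels do not say that a letter marks a litter. The reported fit was therefore unpaired and leaves out any pairing that the letters carry. Of the 162 genes named, 152 were called, and 147 of these kept their call in each of the 12 fits without 1 array; the exceptions were Disp1, Dlx5, Ebp, Mvk and Nog. All 152 had the same sign within each of the 3 fluidics runs. Taking 1 outer zone alone turned the sign of 12 genes: against zone I alone Acp5 had 0.525, Alpl 0.79, Mmp9 2.42 and Sox10 -0.34, and against zone III alone Boc had 0.054, Car9 0.77, Cdon 1.39, Dlx5 -0.61, Fgf18 1.31, Ibsp -0.021, Mmp13 -1.80 and Sp7 -0.61. For these genes the difference from the outer mean describes 1 flank. Quantile normalization ended 6 calls (Car9, Cdkn1c, Col2a1, Hmgcs1, Sufu and Vegfa), median centring 5 and ribosomal centring 13, and averaging over probe sets by their median ended those of Sc5d and Sufu. The low signals of zone II in the dips limit how well their size is known.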
